A study of Rattus norvegicus with 20 samples.

Results

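In the RNA of 10 rats, 45 genes varied between animals of the same group in both the brain and the left ventricle, with the levels of a rat in its tissues correlated. They were picked from the 23760 gene rows with an Ensembl identifier. A gene qualified if its mean was at least 1 CPM, counts scaled to 1000000 per library, in each tissue and if, after the mean of each group was taken out of log2(CPM + 0.5), what remained, the residual, had a standard deviation (SD) of at least 0.5 in each tissue and a Pearson correlation of at least 0.8 between a rat's brain and its left ventricle over the 10 rats. The size of this variation and its match between tissues therefore chose the genes, and are given here as a description without a test.

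The rats were male Sprague-Dawley animals of 250 to 300 g, 5 of them controls and 5 with stress cardiomyopathy (SCM) after immobilization for 6 hours over 7 days. Their age was not given in the sources used here, and no transgene was named for any group. The study describes the rats as anesthetized before they were divided into groups, without naming the agent. Brain and left ventricle of each rat were sequenced, which made 20 libraries of 22386526 to 36251990 counts. The label names of the rats are shared between the tissues, and the study describes both samples as coming from 1 source. The labels do not say in words that each number is a separate animal, so the p-values measure the spread between these libraries. Which region of the brain was taken is not given in the sources used here. Because the gene identifiers could not be linked to symbols here, the tissue labels were not checked against markers, and the genes are described by their levels only.

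Sprague-Dawley is an outbred stock, in which littermates and cage mates need not carry the same alleles. A variant that changes how much RNA a gene gives, such as one in a promoter, in a splice site or in the number of copies of the gene, is present in every cell of an animal, and its effect is often seen in more than 1 tissue. No genotype was analysed here, and the source of the variation described below was not tested. In bulk RNA, fewer cells of a type and less RNA per cell cannot be told apart.

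Of the 11815 genes with a mean CPM of at least 1 in both tissues, 814 had a residual SD of at least 0.5 in the left ventricle, 425 in the brain and 210 in both. The 45 genes were 21.4% of these 210 and 0.381% of the 11815. Of the other 165 genes that varied in both tissues, 36 had a correlation between 0.5 and 0.8, 75 between 0 and 0.5, and 54 below 0, of which 2 were at -0.8 or lower. Most genes that varied between rats in both tissues thus fell short of this match. The median correlation was 0.17 over the 11815 genes and 0.31 over the 210. A correlation of at least 0.8 was also reached by 214 genes whose SD was too small in 1 or both tissues, and in all 259 genes reached 0.8 while 21 reached -0.8.

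**Figure D1:**
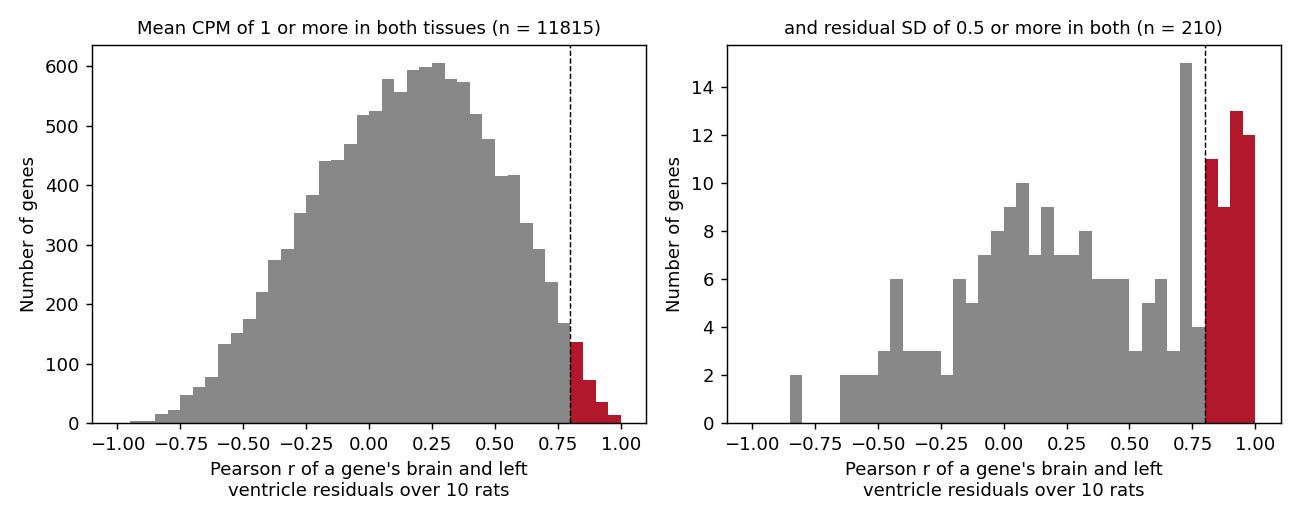
Histogram of the Pearson correlation between a rat's brain and left ventricle residual (x axis, 10 rats) for the genes that varied in both tissues, beside all genes with a mean CPM of at least 1 (y axis, genes). The 45 genes lie at or above 0.8, where the rule put them, and the median over the 210 varying genes was 0.31 against 0.17 over all 11815.

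At the median, the 45 genes lay above the other 165 varying genes in level and below all 11815 genes. Their median CPM was 14.9 in the left ventricle and 9.71 in brain, against 4.14 and 3.13 for the other 165 varying genes and 18.7 and 31.7 for all 11815. Of the 45, 16 had a mean CPM under 10 in both tissues and 11 had one under 2 in at least 1 tissue. In 9 at least 1 library had 3 counts or fewer. With 3 counts taken as the least the depth can show, the floor was 0.118 CPM in the smallest left ventricle library and 0.134 CPM in the smallest brain library.

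Their median residual SD was 0.94 in the left ventricle and 0.91 in brain, where all 11815 genes had medians of 0.21 and 0.16. The SD was larger in the left ventricle for 24 genes and in the brain for 21, and the SDs of both tissues were within 1.5 times of each other for 36. From the lowest to the highest rat, log2(CPM + 0.5) spanned 1.62 to 7.96 in the left ventricle, with a median of 2.97, and 1.26 to 6.14 in the brain, with a median of 2.65. For 34 genes the span was at least 2 in both tissues, and for 5 it was at least 4. The median correlation was 0.91, and 25 genes reached 0.9. Spearman's rho, which the rule did not use, had a median of 0.84 and ran from 0.60 to 0.96.

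Just inside the limit on the correlation lay genes at 0.801, 0.804 and 0.804, and just outside it genes at 0.766, 0.764 and 0.761. On the SD the nearest values were 0.5005, 0.5006 and 0.5012 inside and 0.497, 0.488 and 0.484 outside.

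**Figure D2:**
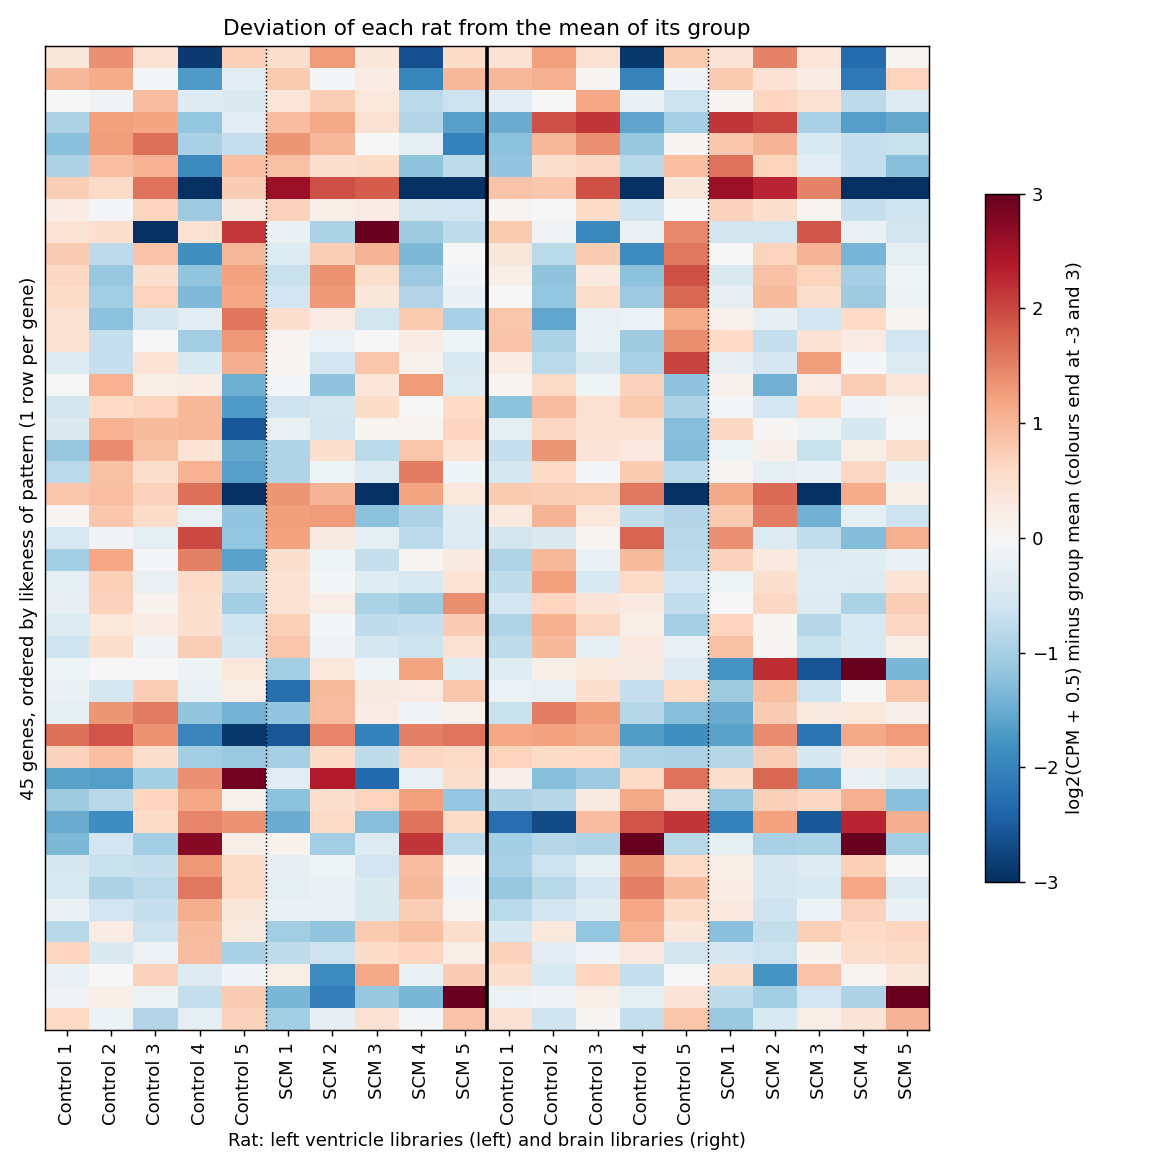
Heat map of the residual log2(CPM + 0.5) of the 45 genes (rows) in the left ventricle and the brain of each rat (columns, controls and SCM rats). The left and right blocks resemble each other within rows, as the rule required, and control 5, control 4 and SCM 4 are at an end of their group for the most genes (29, 25 and 24).

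The widest variation in both tissues belonged to ENSRNOG00000031706. Its left ventricle levels in controls 1 to 5 were 21.5, 19.2, 40.2, 0.530 and 21.8 CPM, and those in SCM rats 1 to 5 were 40.3, 25.8, 23.8, 0.157 and 0.381 CPM. In the brain of the same rats they were 24.0, 23.5, 50.7, 0.410 and 16.8 CPM in the controls and 41.2, 33.5, 19.1, 0.321 and 0.223 CPM in the SCM rats. The same 3 rats, control 4, SCM 4 and SCM 5, were low in both tissues, and the other 7 were high. The lowest of the 7 stood 36.2 times above the highest of the 3 in the left ventricle and 40.9 times in the brain, and each low library still held at least 5 counts. Among the 7, control 3 and SCM 1 were again the highest in both tissues. Their mean was 1.80 times that of the other 5 in the left ventricle and 1.97 times in the brain, and the correlation between tissues over the 7 rats was 0.93.

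ENSRNOG00000027271 had the widest gap between neighbouring rats among gaps with at least 2 rats on each side. Its left ventricle level was 67.4, 71.0, 61.4, 119.8 and 1.80 CPM in controls 1 to 5 and 125.7, 100.8, 2.99, 113.9 and 62.0 CPM in SCM rats 1 to 5. In the brain it was at 53.4, 51.6, 50.9, 92.9 and 1.71 CPM in the controls and at 95.0, 139.8, 2.04, 92.9 and 48.2 CPM in the SCM rats. The levels fell into 3 steps with the same rats on each step in both tissues. Control 5 and SCM 3 formed the lowest step, 20.5 times below the next rat in the left ventricle and 23.6 times in the brain. Controls 1 to 3 and SCM 5 formed the middle step, with means of 65.5 CPM in the left ventricle and 51.0 CPM in the brain. Control 4 and SCM rats 1, 2 and 4 formed the upper step, whose mean was 1.76 times the middle one in the left ventricle and 2.06 times in the brain. Each step held rats of both groups.

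ENSRNOG00000006855 was high in a pair of rats and low in the rest. Control 4 was at 11.6 CPM in the left ventricle and SCM 4 at 11.2 CPM there, and in the brain they were at 16.9 and 17.0 CPM. The other controls were at 0.221, 0.726, 0.403 and 1.57 CPM in the left ventricle and at 0.193, 0.279, 0.253 and 0.291 CPM in the brain. The other SCM rats were at 2.32, 0.781, 1.48 and 1.03 CPM in the left ventricle and at 1.03, 0.445, 0.453 and 0.402 CPM in the brain. The lower of the pair stood 4.83 times above the highest of the other 8 rats in the left ventricle and 16.4 times in the brain, and every library held at least 5 counts. Both members of the pair were among the 3 rats in which ENSRNOG00000031706 was low.

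ENSRNOG00000012067 had the highest correlation of the 45, 0.99, and 1 animal stood far from all others. SCM 5 was at 168.6 CPM in the left ventricle and 9.29 CPM in the brain. The other SCM rats were between 0.178 and 0.786 CPM in the left ventricle and between 0 and 0.189 CPM in the brain, and the controls were between 0.405 and 1.99 CPM and between 0 and 0.291 CPM. SCM 5 stood 84.7 times above the next rat in the left ventricle and 31.9 times in the brain, where the next rat had 9 counts. Its brain mean of 1.02 CPM reached the limit of 1 CPM only through SCM 5, so the gene owes its place among the 45 to that rat. Without SCM 5 the correlation was 0.81, with 6 of the 10 brain libraries at 3 counts or fewer.

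**Figure D3:**
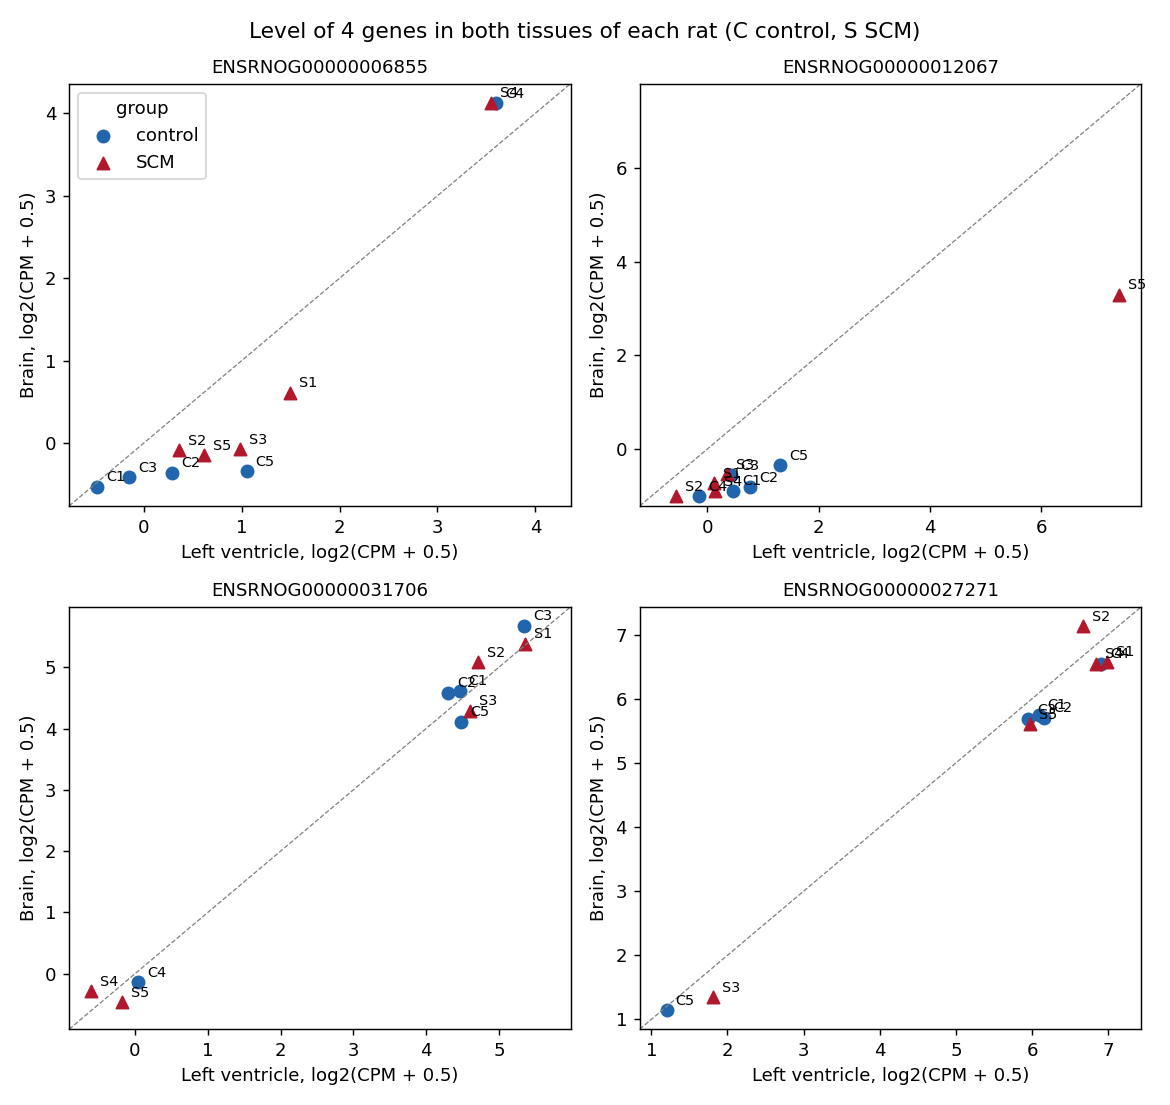
Level of the 4 named genes in the left ventricle (x axis) and in the brain (y axis) of each rat, in log2(CPM + 0.5), with 1 point per rat (C for control, S for SCM). The same rats stand apart in both tissues, although neighbours change places, as 3 low and 7 high for ENSRNOG00000031706, as 3 steps for ENSRNOG00000027271, as a high pair for ENSRNOG00000006855 and as a lone high rat for ENSRNOG00000012067.

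Every gene has a widest gap, and where it lay is a description only. The rats on either side of it, with at least 2 on each side, were 2 against 8 for 16 of the 45 genes, 3 against 7 for 10, 4 against 6 for 13 and 5 against 5 for 6. The smaller side was the high one for 20 genes and the low one for 19. The gap was at least 1 on the log2 scale, averaged over both tissues, for 17 genes and at least 2 for 6. The median gap was 0.66. For 14 of the 45 genes the rats below the gap had a mean under 1 CPM in at least 1 tissue, 12 in the brain and 7 in the left ventricle, so these genes reached the limit of the rule there through the rats in which they were high. The other genes are called here by their rank in falling order of the lower SD.

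Rank 3 split the rats 6 to 4. In the left ventricle its 6 high rats, controls 1 to 3 and SCM rats 2, 4 and 5, were at 14.9, 17.8, 12.1, 12.9, 13.4 and 14.3 CPM, and the other rats were between 0.160 and 0.748 CPM. In the brain the same 6 rats were at 5.02, 5.24, 4.91, 6.06, 4.88 and 5.45 CPM, and the others were between 0.0377 and 0.309 CPM. Rank 28 split the rats in the same way, with 67.5 to 88.9 CPM against 21.7 to 26.9 CPM in the left ventricle and 20.2 to 29.0 CPM against 8.09 to 12.1 CPM in the brain. The residuals of these genes correlated at 0.97 over the 20 libraries. In the low rats the first was below 1 CPM in every library, and the second stayed above 8 CPM in every library.

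The genes of rank 4 and 11 were low in control 4 and SCM 4. At rank 4 these rats were at 4.05 and 4.29 CPM in the left ventricle, where the other 8 were between 37.6 and 85.9 CPM, and at 1.503 and 3.03 CPM in the brain, where the other 8 were between 17.6 and 47.8 CPM. At rank 11 they were at 23.9 and 16.5 CPM against 62.3 to 170.2 CPM in the left ventricle, and at 10.1 and 9.48 CPM against 39.5 to 88.3 CPM in the brain.

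At rank 6 the gene was higher in the brain and showed 3 levels there. Controls 4 and 5 and SCM 4 were at 33.0, 39.8 and 37.7 CPM, control 3 and SCM rats 2 and 5 at 16.8, 17.4 and 15.9 CPM, and controls 1 and 2 and SCM rats 1 and 3 at 1.35, 0.908, 1.41 and 0.830 CPM. In the left ventricle the same sets of rats were at 4.13 to 4.92 CPM, at 1.74 to 2.39 CPM and at 0.0363 to 0.193 CPM, and did not overlap either. At rank 9 the gene was at 5.20, 6.10, 6.46 and 5.84 CPM in the brain of controls 2 and 3 and SCM rats 1 and 2 and between 0 and 0.302 CPM in the others. In the left ventricle these 4 rats were at 3.11 to 5.05 CPM and the others at 0.114 to 2.12 CPM.

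Not every gene had the same span in both tissues. At rank 41 the gene ran from 0.0323 to 36.7 CPM in the brain, where SCM 4 and SCM 2 were at 36.7 and 14.7 CPM and no other rat passed 0.76 CPM, so its brain mean of 5.37 CPM came mostly from that pair. In the left ventricle the same gene ran from 27.7 to 130.8 CPM. SCM 4 was the highest there too, but SCM 2, at 71.5 CPM, was below control 5, at 78.3 CPM. Its residual SD was 1.81 in the brain and 0.56 in the left ventricle.

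The 45 genes did not share a single order of rats. Over the 990 pairs, the median correlation of the residuals in the 20 libraries was near 0, at -0.0036, 75.2% of the pairs lay within 0.5 of 0, and 33 pairs were at least 0.8 from 0 in either direction. Since these points share rats and libraries, they are a description only. A correlation of at least 0.9 was reached by 8 pairs and one of -0.9 or lower by 1 pair. Linking genes at a correlation of at least 0.8 gave 9 sets that held 25 of the 45, the largest with 5 genes. The remaining 20 genes were linked to no other.

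**Figure D4:**
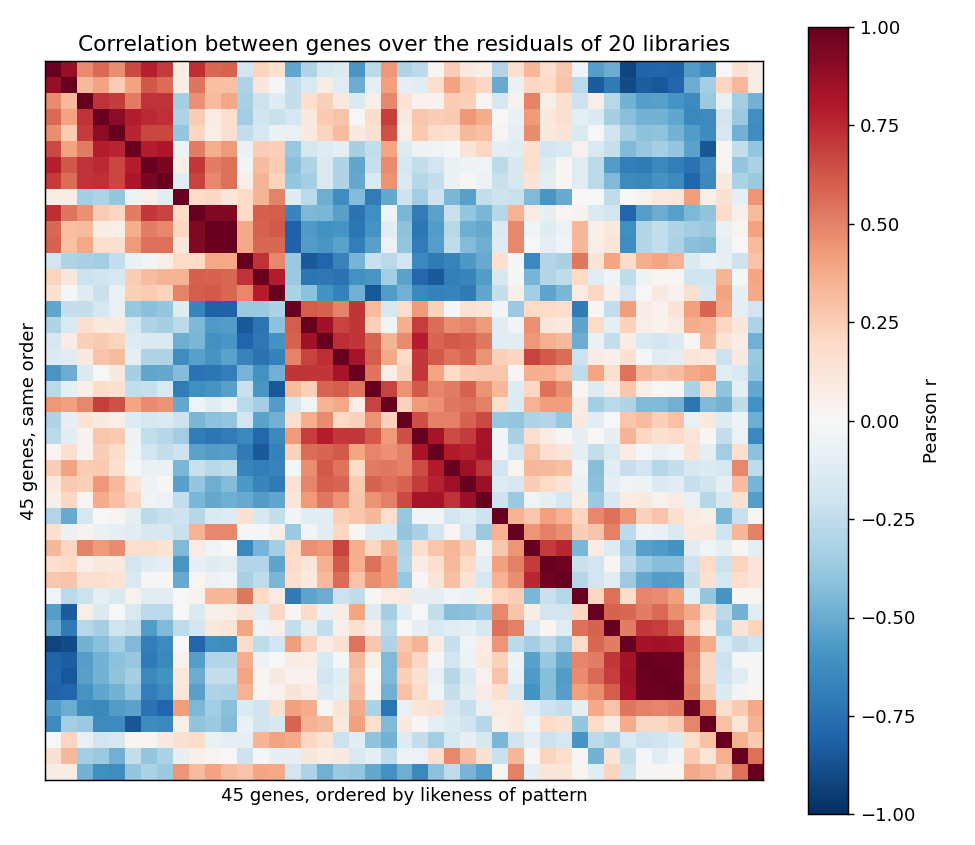
Correlation between the residuals of each pair of the 45 genes over the 20 libraries (both axes, genes ordered by similarity, colour from -1 to 1). Small blocks along the diagonal are the 9 sets linked at 0.8 or more, and outside them most pairs lie within 0.5 of 0.

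One set of 3 genes, of rank 12, 16 and 20, was among the most abundant of the 45, and its members correlated with each other at 0.93 to 0.99. At rank 20, the left ventricle of controls 1 to 5 held 900.3, 298.1, 981.0, 246.8 and 1369 CPM and that of SCM rats 1 to 5 held 349.1, 1287, 655.1, 284.2 and 456.6 CPM. In the brain the controls held 100.3, 44.7, 144.2, 46.7 and 333.2 CPM and the SCM rats 86.1, 197.0, 147.0, 48.5 and 91.8 CPM. Control 5 and SCM 2 were the highest of their groups in both tissues, and controls 2 and 4 and SCM 4 were low in both. Genes with similar sequence can share reads, and whether these 3 do was not tested.

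A set of 4 genes held ENSRNOG00000006855 and the genes of rank 22, 29 and 39, and its mean residual was 1.79 in control 4, 1.33 in SCM 4 and 0.36 in control 5, with every other rat below 0. At ranks 22, 29 and 39 control 5 was on the high side of the widest gap as well. At rank 22 control 4, control 5 and SCM 4 were at 365.0, 182.4 and 179.5 CPM in the left ventricle and at 150.8, 101.7 and 92.3 CPM in the brain. At rank 39 control 4 and SCM 4 were at 492.9 and 334.3 CPM in the left ventricle and 230.0 and 130.5 CPM in the brain. Control 5 was next in the brain, at 151.1 CPM, above SCM 4. A set of 3 genes held ENSRNOG00000031706 and the genes of rank 14 and 45, with mean residuals of -2.01 in control 4, -1.60 in SCM 4 and -1.57 in SCM 5. The gene of rank 45 was the most like ENSRNOG00000031706 of all genes tested, at a correlation of 0.94 over the 20 libraries, but its span was far smaller, from 32.8 to 126.2 CPM in the left ventricle and from 40.6 to 106.1 CPM in the brain.

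The nearest genes to the other named ones were less alike. Over the 20 libraries the highest correlation was 0.84 for ENSRNOG00000006855, 0.83 for ENSRNOG00000012067 and 0.81 for ENSRNOG00000027271, and in each case that gene was not among the 45. Of the 45 genes, 12 had any other gene at 0.9 or more, and none had more than 2.

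The rats did not contribute equally. Control 5 was the highest or lowest of its group, by the mean of both tissues, for 29 of the 45 genes, control 4 for 25 and SCM 4 for 24, while control 1 was so for 7. The left ventricle library of control 4 also had the largest share of its counts in its 10 most abundant genes, 33.0%, where the others had 27.2% to 31.1%, and the part of this in the results was not tested. Without control 4, 41 genes passed the rule and 38 of them were among the 45. Without control 5, 40 passed and 34 of them were among the 45, the fewest for any rat left out. The same rat was the highest control in both tissues for 32 genes and the highest SCM rat in both for 31. It was the lowest in both for 32 genes in the controls and 23 in the SCM rats.

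Control 4 and SCM 4 resembled each other over these genes. Their residuals, averaged over both tissues, correlated at 0.68 across the 45 genes, the highest of the 25 pairs of a control and an SCM rat, before control 3 and SCM 2 at 0.50. The lowest pair was at -0.42. The size of the residuals and their match between tissues chose the genes, and linked genes count more than once. These values are therefore a description only. Across the other 11770 genes control 4 and SCM 4 were at 0.13, where the highest pair was control 1 with SCM 3 at 0.27. Relatedness of the rats was not tested.

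The correlation of single genes rested on few rats in part of the list. Leaving out each rat in turn, 33 of the 45 stayed at 0.8 or more every time, and 23 met the whole rule every time. The lowest value, 0.39, came from the gene of rank 36 without control 5, whose levels of 0.802 CPM in the left ventricle and 3.53 CPM in the brain were the lowest of the controls. Without the 2 rats farthest from the median in the left ventricle, 29 genes stayed at 0.8 or more and 3 were below 0.5.

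The difference between SCM and control was not used to choose the genes, since the group means were removed. Of the 45 genes, 2 passed edgeR's quasi-likelihood test in the left ventricle at an adjusted p-value under 0.05, both lower in SCM, where 5.21% of all 13954 genes tested passed. With an absolute log2 fold change over 2 as well, 1 of the 45 passed, against 0.229% of all. At an unadjusted p-value under 0.05, 7 of the 45 passed, against 23.2% of all. In the brain 43 of the 45 had enough counts to be tested and 0 passed, where 0.175% of all 16002 genes passed, and with the limit on the fold change 0 passed of either, or 0.00% of all. At an unadjusted p-value under 0.05, 5 of the 43 passed in the brain, against 14.3% of all. DESeq2 called 2 of them there, against 2.51% of all, and limma-voom 0, against 0.181% of all.

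**Figure D5:**
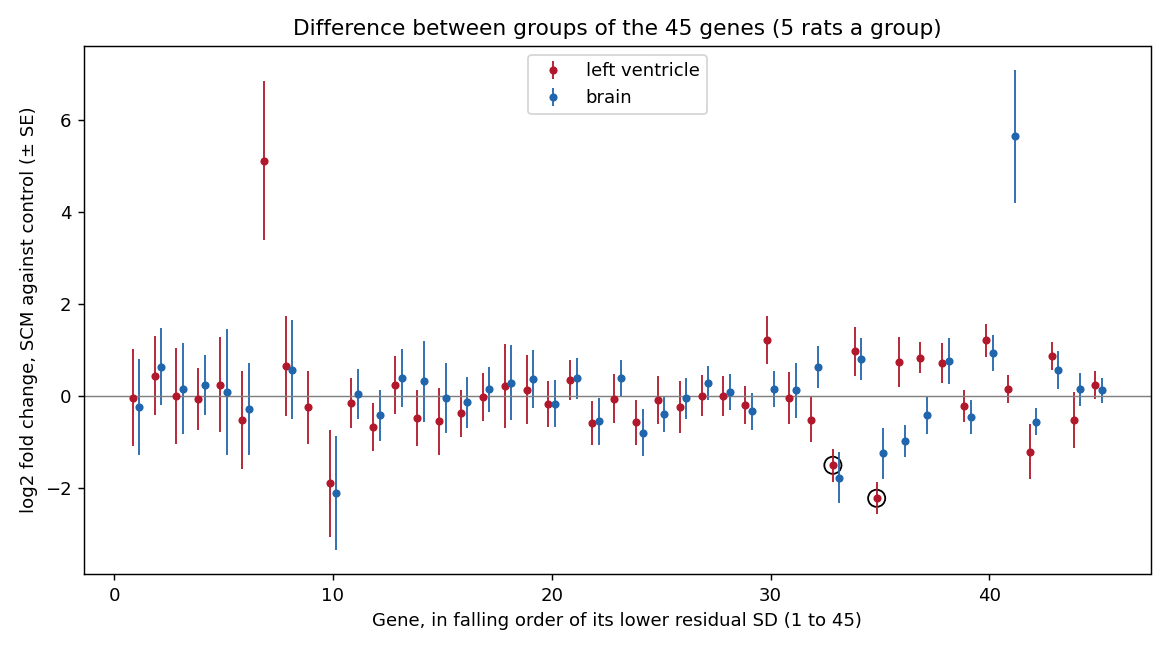
Log2 fold change of SCM against control for the 45 genes in the left ventricle and 43 of them in the brain (x axis, falling order of the lower SD), with bars of 1 standard error from edgeR and 5 rats a group. Black rings mark the 2 genes that passed the test, both in the left ventricle, and the widest bars lie at the left, among the genes with the largest variation between rats, and at rank 41 in the brain.

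Since the rule kept genes with a large spread between rats, it also set large errors on their differences between groups, and the values here are a description. The median absolute log2 fold change was 0.38 in the left ventricle and 0.39 in brain, where all genes tested had medians of 0.20 and 0.14. The median standard error was 0.53 in the left ventricle and 0.51 in brain, against 0.16 and 0.13 for all genes. The signed medians were -0.04 and 0.13, against -0.01 and 0.00 for all.

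None of the named genes passed the edgeR test between the groups when each tissue was fitted on its own. ENSRNOG00000027271 differed by a log2 fold change of 0.44 ± 0.86 (SE, adjusted p = 0.798) in the left ventricle and 0.64 ± 0.84 (adjusted p = 0.748) in the brain. ENSRNOG00000031706 differed by -0.03 ± 1.06 (adjusted p = 0.990) and -0.24 ± 1.03 (adjusted p = 0.936). ENSRNOG00000006855 differed by 0.25 ± 1.03 (adjusted p = 0.914) and 0.09 ± 1.37 (adjusted p = 0.980). For ENSRNOG00000012067 the left ventricle value was 5.12 ± 1.73 (adjusted p = 0.102), which turned to -0.85 without SCM 5, was 0.73 with limma-voom, and passed at 5.08 (edgeR adjusted p = 0.0485) in 1 fit of all 20 libraries. Its brain counts were too low to be tested in the fit of the brain. In the fit of all 20 libraries the brain value of this gene was 3.92 and did not pass (edgeR adjusted p = 0.598).

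The larger of the called differences was that of rank 35. Its left ventricle held 86.5, 70.1, 150.5, 82.2 and 242.2 CPM in controls 1 to 5 and 24.5, 15.6, 42.0, 25.5 and 16.9 CPM in SCM rats 1 to 5, so the groups did not overlap. The log2 fold change was -2.22 ± 0.35 (SE, edgeR adjusted p = 0.00673). In the brain the controls held 25.8, 12.4, 16.2, 11.0 and 91.6 CPM and the SCM rats 9.51, 7.84, 27.8, 10.9 and 8.40 CPM, which overlapped, and the log2 fold change was -1.25 ± 0.56 (edgeR adjusted p = 0.338). Control 5 was the highest control and SCM 3 the highest SCM rat in both tissues.

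The other called gene, of rank 33, held 26.2, 11.6, 18.8, 8.95 and 47.5 CPM in the left ventricle of the controls and 7.68, 6.28, 7.16, 8.55 and 6.60 CPM in that of the SCM rats. The groups were apart by a narrow margin, between control 4 and SCM 4. The log2 fold change was -1.51 ± 0.36 (SE, edgeR adjusted p = 0.0353). In the brain the controls held 7.11, 1.68, 3.14, 1.503 and 10.6 CPM and the SCM rats 2.13, 0.556, 1.85, 1.57 and 0.670 CPM, with a log2 fold change of -1.78 ± 0.55 (edgeR adjusted p = 0.207). The call in the left ventricle was lost when any of control 1, control 3 and SCM rats 1 to 5 was left out, at edgeR adjusted p-values of 0.0790, 0.0659, 0.0662, 0.0812, 0.0534, 0.0644 and 0.0853 in that order. In these fits the log2 fold change stayed between -1.57 and -1.44. Without control 5 the call was kept, but the log2 fold change was -1.07 (edgeR adjusted p = 0.0327). The call was also lost with limma-voom (-1.30, adjusted p = 0.0971) and with the replicate number as a block (-1.28, edgeR adjusted p = 0.0895). The gene of rank 35 kept its call in each of these fits, at adjusted p-values of 0.0046 to 0.0251 over all 10 with 1 rat left out. Its log2 fold change was -1.87 without control 5, which does not pass the limit of 2. Without control 4 or SCM 3, 3 of the 45 genes passed in the left ventricle, where 4.16% and 6.77% of all genes did, and without SCM 3, 1 passed in the brain, where 0.692% of all did.

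Whether the difference between SCM and control was unequal between ventricle and brain was asked by an interaction term, with each rat taken as a block, and 1 of the 45 genes passed, where 0.754% of all 16720 passed. With this block the error comes from the mismatch of tissues within a rat, and the rule chose genes for a close match. The median standard error of the 45 was 0.31 with the block and 0.79 without it, against 0.24 and 0.26 for all genes. The call and its share are therefore a description and no support. That gene, of rank 30, held 263.5, 1194, 522.3, 1511 and 173.8 CPM in the left ventricle of the controls and 2146, 1412, 954.1, 1618 and 1849 CPM in that of the SCM rats. In the brain it held 13.0, 49.5, 21.2, 48.0 and 13.9 CPM in the controls and 48.8, 37.1, 22.8, 23.4 and 26.0 CPM in the SCM rats. The groups overlapped in both tissues. The interaction was 1.28 ± 0.25 on the log2 scale (SE, edgeR adjusted p = 0.0440). In the separate fits of each tissue by edgeR, without the block, the log2 fold change was 1.22 ± 0.52 (adjusted p = 0.186) in the left ventricle and 0.15 ± 0.39 (adjusted p = 0.886) in the brain. Without the rat as a block the interaction was 1.05 ± 0.71 (edgeR adjusted p = 0.518). With the block, the call was lost without control 1, 2 or 3, at edgeR adjusted p-values of 0.0989, 0.0782 and 0.102, and without SCM 1, 2, 4 or 5, at 0.0803, 0.0622, 0.0903 and 0.102. Without control 5, 4 of the 45 genes passed, where 1.29% of all did.

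Between the tissues, 42 of the 45 genes differed by edgeR with the rat as a block, a share near that of all 16720 genes tested, of which 85.3% differed. Of the 42, 36 were higher in the left ventricle and 6 in brain. The error with the block again rests on the match between tissues that chose the genes. Without the block 36 of the 45 differed, where 85.6% of all genes did. The median log2 difference of left ventricle against brain was 1.83 over the 45 genes and -0.18 over all genes. These values rest on the TMM scaling, whereas the CPM given above rest on library totals alone. Scaled by library totals, 38 of the 45 differed, 30 higher and 8 lower in the left ventricle, where 88.3% of all genes differed, and the medians were 1.02 and -0.98. For ENSRNOG00000031706 the direction turned, from 0.75 ± 0.12 (SE, edgeR adjusted p = 4.54e-05) with TMM to -0.06 ± 0.12 (edgeR adjusted p = 0.660) by totals.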

How the data were processed

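RNA-seq of brain and left ventricle was analysed for 5 control and 5 SCM rats. The authors deposited raw counts per gene for each library, unpooled, with 24160 features, of which 400 had no Ensembl identifier. The submitters' processing notes name HISAT2, StringTie, SAMtools and the build mRatBN7.2. The counting settings and strand are not given in the sources used here. CPM were computed here from each library's total. Tests used edgeR 4.0.16 in R 4.3.3 with TMM, filterByExpr (minimum count 10, minimum total 15), the quasi-likelihood test and Benjamini-Hochberg adjustment over all genes tested. DESeq2 1.42.0 and limma-voom (limma 3.58.1) were alternatives. The rule and fits were tested on simulated data. No 2 libraries of a group agreed within sampling noise (squared difference at least 11.2 times its variance). The genes, lists and alternatives were chosen with earlier results of these data known. With no table that paired identifiers with symbols, at most 2 genes that were high in a few rats and 2 that were low were named, from those with the widest variation, gap or correlation. Other genes described by rank were chosen after their values were seen. Gene lists and markers were not analysed here. Brain and left ventricle were paired by the rat's name and the study's text. Over 11770 other genes a rat's tissues correlated at 0.028 to 0.189, above 0.1 in 8 of 10 rats.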

Additional observations from a re-analysis of the deposited data

Results flagged for a closer look

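Of the 16 groups of 5 libraries of the 4 named genes, 10 held 1 library far from the other 4 by Dixon's criterion, where chance gives about 1 in 20, or 0.8. These genes were chosen for such gaps, so the number is no support. Over the 180 groups of all 45 genes, the named ones included, 20 did, where chance gives about 9, and these groups share rats and were chosen for spread as well.

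ENSRNOG00000006855 was at 17.0 CPM in the brain of SCM 4, where the other SCM rats were at 0.402 to 1.03, and at 16.9 CPM in that of control 4, where the other controls were at 0.193 to 0.291. ENSRNOG00000012067 was at 168.6 CPM in the left ventricle and 9.29 CPM in the brain of SCM 5. ENSRNOG00000027271 was low in SCM 3, at 2.99 CPM in the left ventricle and 2.04 CPM in the brain, and in control 5, at 1.80 and 1.71 CPM. ENSRNOG00000031706 was low in control 4, at 0.530 CPM in the left ventricle and 0.410 CPM in the brain. In each of these cases the same rat was the extreme one in the other tissue. For the gene of rank 30, the difference between SCM and control was unequal between the tissues by the interaction test in edgeR, at 1.28 on the log2 scale (adjusted p = 0.0440). The call was lost without the rat as a block (1.05, adjusted p = 0.518) and in 7 of the 10 fits with 1 rat left out (adjusted p = 0.0622 to 0.102). The match between tissues that chose the genes bears on the error of this test.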

How the results depend on the processing

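The number of genes that met the rule was 45, and 23 with a mean CPM of at least 5, 13 with an SD of at least 1, 117 with an SD of at least 0.25, 25 with a correlation of at least 0.9, and 40 to 49 when 1 rat was left out. With TMM scaling it was 43 (43 of them among the 45), with a pseudocount of 2 it was 32 (32), with a pseudocount of 0.1 it was 54 (42), with Spearman's correlation 33 (32), with no limit on the mean CPM 57 (45), and with the group means left in 53 (39). Of the genes called between groups in the left ventricle, 2 became 1 with limma-voom (4.71% of all genes tested), 4 with DESeq2 (11.6% of all, with no adjusted p for 2 of the 45), 3 in 1 fit of all 20 libraries (10.7% of all), 1 with the limit on the fold change, 7 without adjustment and 1 to 3 with 1 rat left out (2.04% to 7.07% of all). With the replicate number as a block there was 1 in the left ventricle (2.25% of all). That number is shared by different rats, whose deviations correlated at -0.10 to 0.15 in the left ventricle and at -0.25 to 0.18 in the brain. The tissues of 1 rat correlated at 0.028 to 0.189 over 11770 other genes, so such values cannot tell whether samples are paired. Whether a shared number marks a batch was not tested. In the brain, 0 became 2 with DESeq2, 5 without adjustment and 0 to 1 with 1 rat left out (0.0247% to 0.692% of all). For the interaction, 1 became 3 with limma-voom (0.981% of all), 0 without the rat as a replicate block (1.70% of all) and 0 to 4 with 1 rat left out (0.0593% to 1.29% of all). Between tissues, 42 became 36 without the block (85.6% of all) and 41 to 43 with 1 rat left out (83.7% to 84.5% of all). Scaling by library totals, chosen after seeing the data, gave 38 (88.3% of all). With 1 rat left out, the log2 fold change between groups ran from -0.996 to 2.34 (left ventricle) and -2.61 to 3.93 (brain) for ENSRNOG00000006855, from -0.85 to 5.46 in the left ventricle for ENSRNOG00000012067, from 0.13 to 0.84 (left ventricle) and 0.26 to 1.00 (brain) for ENSRNOG00000027271, and from -0.57 to 0.35 (left ventricle) and -0.72 to 0.29 (brain) for ENSRNOG00000031706. In the left ventricle limma-voom gave 1.16 for ENSRNOG00000006855 and -1.37 for ENSRNOG00000031706, and in the brain 0.88 and -0.99. The replicate block gave 0.89, -0.65 and, for ENSRNOG00000012067, 1.08 in the left ventricle, and 0.77 and -0.78 in the brain, and none of these passed. Depth limits the low side of genes near 3 counts. The causes of these changes were not tested.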

Other observations

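Among the 400 features without an Ensembl identifier, 93 had a mean CPM of at least 1 in both tissues and 6 of these varied with an SD of at least 0.5 in both. One of the 6 met the whole rule, with a correlation of 0.89 between a rat's tissues and SDs of 0.63 (left ventricle) and 0.85 (brain).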
